A study of Danio rerio with 47 samples.

Results

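The 14 wild-type arrays of zebrafish trunk at 14 days post fertilization (dpf), out of 47 arrays in the study, were put in order by how much germ cell transcript they carried. Each array was scored by the mean log2 intensity of 5 germ cell rows, vasa (current symbol ddx4), smc1b, tdrd9, piwil1 and dazl, and the 7 highest arrays were set against the 7 lowest over the other 31470 rows of the table. Since the arrays were chosen by these measured values, every difference between them is given as a description, without a test, on a log2 scale on which 1 unit is a doubling. Tests were run only between the labelled groups and between lower and upper title numbers, a cut that the labels do not name.

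The 14 samples came from wild type, which the labels put in a class of high germ cell number without a figure. The study set them beside 9 arrays of dnd morphants of the same age, made by injecting a dnd morpholino (an antisense oligonucleotide that blocks translation) at the one-cell stage and screened at 24 hours post fertilization for 1 to 9 primordial germ cells. It also held 14 wild-type and 10 morphant arrays at 22 dpf, which share no array with the ordered arrays. All groups were trunk RNA that had been amplified before labelling, and the labels leave it unsaid whether 1 fish or a pool went on each. Array medians lay between 7.26 and 7.70. Nothing beyond the labels says that the replicates are separate fish, so p-values rest on the spread between arrays, which may be technical. The main fits treat every array as separate, although some pairs (near-duplicate arrays, described under processing) had closely correlated deviations. If such pairs are the same RNA, the main p-values are too small.

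Zebrafish set aside germ cells early through germ plasm, a maternal store of RNA and protein. In the larval gonad those cells proliferate, a part of them enters meiosis, and nearly all fish first form an immature ovary before the sexes separate. A small RNA system, the piRNA pathway, silences transposons in germ cells, and its Piwi and Tudor proteins are among the most germ cell specific products of a fish. In trunk RNA, fewer germ cells and less RNA per germ cell cannot be told apart.

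The germ score was 9.85 ± 0.45 (SD, n = 7) in the high arrays and 8.74 ± 0.63 (SD, n = 7) in the low arrays, a difference of 1.11. High arrays ran from 9.43 to 10.79 with a median of 9.81, and low arrays from 7.35 to 9.23 with a median of 8.90. The boundary was narrow: array 10, the lowest of the high arrays, scored 9.43 and array 7, the highest of the low arrays, scored 9.23, a gap of 0.191. The ends stood further off. Array 8 led at 10.79 against 9.89 for the next, and array 20 closed the order at 7.35 against 8.81 for the one above it. The 9 morphant arrays scored 5.53 to 8.97 with a median of 5.77. One of them, array 3 at 8.97, lay above 4 wild-type arrays, and the other 8 lay below every wild-type score.

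**Figure D1:**
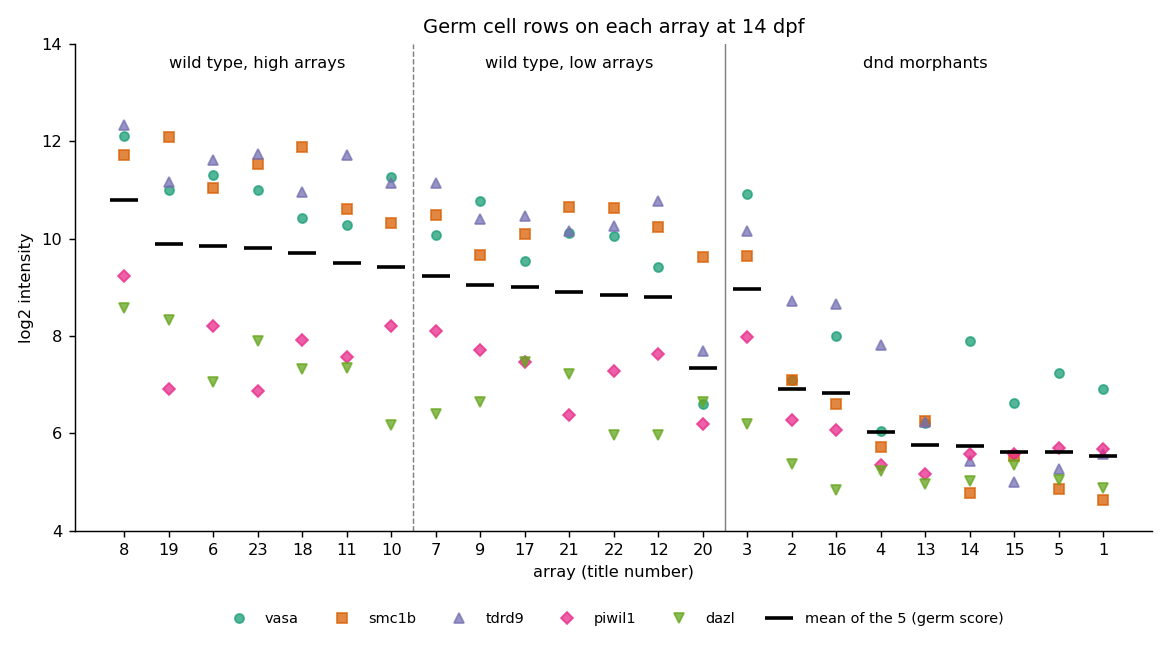
Log2 intensity of the 5 germ cell rows (symbols) and their mean, the germ score (bars), on each array at 14 dpf, with arrays named by title number and ordered by score within each group. The 7 high and 7 low wild-type arrays meet at 9.43 and 9.23, array 20 stands low at 7.35, and morphant array 3 stands at 8.97.

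The 5 rows did not rank the arrays alike. vasa encodes a DEAD-box RNA helicase of germ plasm, and its level was 10.28 to 12.12 with a median of 11.01 on high arrays and 6.60 to 10.77 with a median of 10.05 on low arrays. tdrd9, a Tudor-domain helicase of the piRNA pathway, was 10.97 to 12.34 (median 11.62) on high and 7.70 to 11.14 (median 10.40) on low arrays. smc1b, the meiosis-specific cohesin subunit, was 10.33 to 12.10 (median 11.52) on high and 9.62 to 10.66 (median 10.24) on low arrays. These 3 rows differed by 1.54, 1.40 and 1.12 between the 2 sets. dazl, which encodes an RNA-binding protein of germ cells, and piwil1, the Piwi protein also called Ziwi, differed by 0.91 and 0.60. No row of the 5 separated the 2 sets completely: the number of high arrays above the highest low array was 6 for tdrd9, 5 for vasa and smc1b, and 3 for piwil1 and dazl. Array 8 was highest in 4 of the 5 rows, array 20 lowest in 4.

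Over the other rows the 2 sets were close. The median difference was -0.01, and the 5th and 95th percentiles were -0.65 and 0.71. Rows whose 7 high and 7 low arrays did not overlap and whose means differed by at least 1 numbered 4 higher (0.0127% of 31470) and 0 lower (0%). With no minimum size, 7 rows were separated upward (0.0222%) and 1 downward (0.00318%). None of these 8 rows belongs to a germ cell list. How many rows a random split of the arrays would separate was not estimated, so these counts do not show separation beyond chance.

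Of the 4, loc797085, a protein-coding gene that carries only a placeholder symbol, was 9.26 to 10.72 (median 10.18) on high and 4.93 to 8.53 (median 7.14) on low arrays, a difference of 2.62. s100a1, a calcium-binding protein of the S100 family, was 7.47 to 9.23 (median 8.32) on high and 5.22 to 7.39 (median 6.49) on low arrays. Its difference was 1.70, but the lowest high and highest low arrays were nearly equal, and morphants at 14 dpf spanned both sets of arrays at 4.95 to 9.85 (median 6.40). pimr122, one of a large family of Pim-related kinase genes, was 5.40 to 7.73 (median 5.82) on high and 4.27 to 5.31 (median 4.77) on low arrays. si:ch1073-159d7.11 was 6.77 to 7.64 (median 7.33) on high and 5.47 to 6.52 (median 6.06) on low arrays. Rows of gene families such as pimr122 may share probe signal with related copies.

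In the separate arrays at 22 dpf (10 morphant, 14 wild type), 3 of these 4 rows fell in morphants by limma with Benjamini-Hochberg adjustment over 31475 rows, against 2.8% of all rows. s100a1 fell by 4.43 (SE 0.73, adjusted p = 0.000494), from a mean of 12.11 in 14 wild-type to 7.67 in 10 morphant arrays. loc797085 fell by 2.98 (SE 0.56, adjusted p = 0.00165). pimr122 fell by 1.45 (SE 0.37, adjusted p = 0.0236), a call lost when near-duplicate arrays were averaged (adjusted p = 0.118) or without morphant array 3 (adjusted p = 0.0525). si:ch1073-159d7.11 did not pass (difference -0.30, adjusted p = 0.335). At 14 dpf, with all 14 wild-type arrays as 1 group, none of the 4 passed, at adjusted p values of 0.282 to 0.788.

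The smaller separated rows were gdf6b, a growth factor of the BMP family, with a difference of 0.74, jac6 with 0.50 and si:dkey-211g8.9 with 0.38. fam124b was the row separated downward, at 4.41 to 5.53 (median 5.06) on high and 5.62 to 6.45 (median 6.03) on low arrays. None of these passed in morphants at 22 dpf, at adjusted p values of 0.54 to 0.805.

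Germ plasm and piRNA genes outside the score were mostly higher in the high arrays. Of 25 measured members 18 had a higher mean and 7 a lower one, with a median difference of 0.56, beside 48.6% of all rows higher and a median of -0.01. Their mean level was 7.43 ± 0.29 (SD, n = 7) on high and 6.95 ± 0.20 (SD, n = 7) on low arrays, and 6.33 ± 0.33 (SD, n = 9) on morphant arrays. High arrays ran from 7.10 to 7.85 and low arrays from 6.60 to 7.25, so array 7 of the low arrays lay above arrays 10 and 19 of the high arrays. Array 20, last by the germ score, was not lowest here: its 7.03 stood above the 6.60 of array 17.

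dnd1, the RNA-binding protein whose translation the morpholino blocks, had the largest difference of the list. Its level was 7.19 to 9.71 (median 8.37) on high and 4.94 to 7.29 (median 6.23) on low arrays, and 4.75 to 7.23 (median 5.86) on morphant arrays. The 2 sets overlapped only between 7.19 and 7.29, 6 high arrays lay above every low array, and the means differed by 2.07. In morphants dnd1 fell by 3.76 at 22 dpf (SE 0.68, limma adjusted p = 0.00127) but did not pass at 14 dpf, where the difference was -1.28 (adjusted p = 0.244). In simulated data the 14 dpf fit called 37% of changes of -1 and 77% of changes of -2, over rows drawn at random. A change of that size could be missed at 14 dpf. These rates rest on independent simulated arrays and are not specific to dnd1, so they do not tell why it was not called.

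Next came henmt1, the enzyme that methylates the ends of piRNAs, with 8.28 to 9.69 (median 8.73) on high and 6.18 to 9.40 (median 7.31) on low arrays. Its difference of 1.44 was 0.65 among arrays with title numbers up to 12 and 2.17 among those from 13 onward. gtsf1, a zinc finger protein of the piRNA pathway, differed by 1.32, and tdrd5, another Tudor-domain protein, by 1.04. piwil2, the second Piwi protein of zebrafish, differed by 0.85 with 7.26 to 9.71 (median 8.52) on high and 6.56 to 8.33 (median 7.50) on low arrays. tdrd1, a Tudor scaffold, was nearly level at 0.27 with 0 high arrays above the highest low one. nanos3, a translational repressor of early germ cells, went the other way at -0.44.

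Of the same 25 genes 15 fell in morphants at 22 dpf and 7 at 14 dpf, where 2.8% and 0.438% of all rows fell (0.181% rose at 14 dpf). With near-duplicate arrays averaged 16 fell at 22 dpf (1.77% of all rows), nanos3 being the one gained. None passed upward in limma, where 0 had an unadjusted p under 0.05 upward at 22 dpf and 1 at 14 dpf. tdrd1 was among those that fell at both ages, by 2.24 (SE 0.30, limma adjusted p = 6.46e-05) at 22 dpf and by 1.86 (SE 0.34, adjusted p = 0.0123) at 14 dpf. Its low and high wild-type arrays overlapped almost fully, at 6.34 to 8.27 and 6.57 to 8.15, while morphants at 14 dpf had 4.46 to 7.17.

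Meiosis genes showed the same tilt. Of 29 measured members 23 had a higher mean in the high arrays and 6 a lower one, with a median difference of 0.42. The list level was 7.68 ± 0.29 (SD, n = 7) on high, 7.24 ± 0.28 (SD, n = 7) on low and 6.88 ± 0.14 (SD, n = 9) on morphant arrays. Array 18 was highest at 8.15 and array 17 lowest at 6.91, and array 21 of the low arrays reached 7.68. In morphants 13 of the 29 fell at 22 dpf (2.8% of all rows) and 2 at 14 dpf (0.438% of all rows). With near-duplicate arrays averaged 11 fell at 22 dpf (1.77% of all rows). The calls of rad21l1 and mei1 were then lost (adjusted p = 0.183 and 0.0515 in limma).

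hormad1, which marks unsynapsed chromosome axes in meiotic prophase, was 7.99 to 10.09 (median 9.38) on high and 6.60 to 8.80 (median 7.50) on low arrays. The difference was 1.55, 5 high arrays lay above every low array, and it was 1.41 and 1.47 within the lower and upper title numbers. Morphants at 14 dpf had 4.86 to 8.07 (median 5.63), and there hormad1 fell by 2.59 (SE 0.43, limma adjusted p = 0.00545). At 22 dpf it fell by 3.46 (SE 0.46, adjusted p = 6.46e-05).

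rnf212, a RING protein that in mouse marks crossover sites, was 6.15 to 9.14 (median 8.29) on high and 4.84 to 9.09 (median 5.35) on low arrays. One low array was therefore nearly as high as the top high array, though the means differed by 1.83. sycp3 and sycp2, proteins of the chromosome axis in the synaptonemal complex, differed by 1.47 and 1.01. sycp3 was uneven within the high arrays, where array 8, first by the germ score, had the lowest value of 5.26 and the highest array had 9.42. dmc1, the meiotic recombinase, picked after its value had been seen, had the lowest difference of the list at -0.59.

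**Figure D2:**
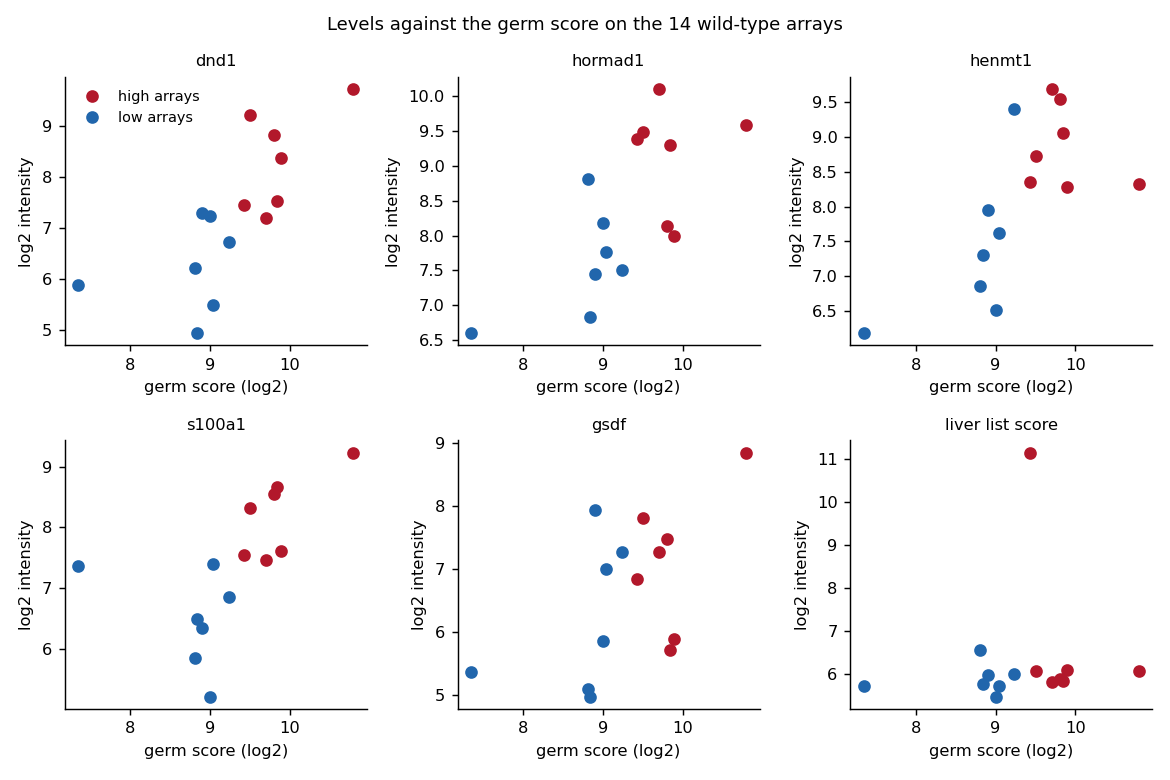
Log2 intensity of 5 genes and the mean of 19 liver genes (vertical axes) against the germ score (horizontal axes) on the 7 high and 7 low wild-type arrays at 14 dpf, 1 point per array. dnd1, hormad1, henmt1 and s100a1 sit mostly higher on the high arrays, gsdf overlaps widely, and the liver level rests near 6 except on array 10 at 11.1.

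Oocyte and egg coat genes differed little between the 2 sets. Of 25 measured members 18 had a higher mean in the high arrays and 7 a lower one, but the median difference was 0.17, and the list level was 6.80 ± 0.17 (SD, n = 7) on high and 6.60 ± 0.24 (SD, n = 7) on low arrays. Morphants at 14 dpf stood at 6.49 ± 0.12 (SD, n = 9), and 1 of the 25 fell in them at that age (0.438% of all rows). At 22 dpf 18 of the 25 fell (2.8% of all rows). With near-duplicate arrays averaged 15 did (1.77% of all rows). The calls of zp3a.1, btg4 and rnaset2l were then lost (limma adjusted p = 0.122, 0.0999 and 0.0827).

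zp3b, an egg coat glycoprotein, had 7.52 to 10.23 (median 9.13) on high and 6.21 to 9.52 (median 7.44) on low arrays, a difference of 1.04. Its morphant level at 14 dpf, 6.85 to 9.12 (median 8.67), lay within that of the low arrays and reached below that of the high arrays. buc, the Balbiani body organizer that stands in both this and the germ plasm list, was 5.91 to 9.92 (median 7.71) on high and 4.89 to 8.18 (median 7.35) on low arrays. The difference of 0.90 was 1.70 among title numbers up to 12 and 0.14 from 13 onward. bmp15, an oocyte growth factor, was lower in the high arrays, at 4.78 to 7.36 (median 5.33) against 4.81 to 8.86 (median 6.29) on low arrays.

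org, known in zebrafish as an oogenesis-related gene, had 6.38 to 10.25 (median 8.78) on high and 6.57 to 9.19 (median 8.48) on low arrays. Its 2 sets overlapped almost fully, yet it fell in morphants at 14 dpf by 2.97 (SE 0.50, limma adjusted p = 0.00552) and at 22 dpf by 5.17 (SE 0.62, adjusted p = 2.67e-05). figla, the oocyte transcription factor, and zp3, another egg coat gene, differed by 0.22 and -0.38, with medians between 4.55 and 5.72 on both sets of arrays, near the low end of the scale.

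The lists for the gonad's somatic cells were mixed. In the ovarian list, which also holds foxl2l, a gene of germ cells, 11 of 21 had a higher and 10 a lower mean in the high arrays, with a median difference of 0.01. fshr, the receptor for follicle-stimulating hormone, had the largest difference at 1.53, with 4.60 to 9.22 (median 5.61) on high and 4.32 to 5.47 (median 4.42) on low arrays. It was 0.53 within title numbers up to 12 and 2.92 from 13 onward. foxl2l, expressed in zebrafish germ cells on the way to oocytes, spread widely on both sets of arrays, at 5.16 to 11.22 (median 8.50) on high and 5.12 to 9.95 (median 6.77) on low arrays. foxl2 and cyp19a1a, an ovarian transcription factor and the gonadal aromatase, differed by -0.02 and -0.15. In morphants 5 of the 21 fell at 22 dpf (2.8% of all rows), and 5 with near-duplicate arrays averaged (1.77% of all rows). Among them foxl2 fell by 2.24 (limma adjusted p = 0.000336), cyp19a1a by 2.37 (adjusted p = 0.00122) and fshr by 1.45 (adjusted p = 0.00697). foxl2l fell by 2.68 (adjusted p = 0.000109). At 14 dpf 1 of the 21 fell (0.438% of all rows), and 0 with near-duplicate arrays averaged (0.226% of all rows).

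In the testis list 17 of 25 had a higher and 8 a lower mean, with a median of 0.16 that was -0.02 among title numbers up to 12 and 0.35 from 13 onward. gsdf, a TGF-beta family factor of the cells that surround germ cells, was 5.71 to 8.84 (median 7.27) on high and 4.98 to 7.93 (median 5.86) on low arrays. Its difference was 0.91 overall and 0.85 in each number group, and morphants at 14 dpf had 4.61 to 6.50 (median 5.38). gsdf fell in morphants at 22 dpf by 1.55 (SE 0.27, limma adjusted p = 0.000764) and did not pass at 14 dpf (difference -1.10, adjusted p = 0.227). amh, the anti-Müllerian hormone, differed by 0.73 and dmrt1, a transcription factor of the testis, by 0.21. sox9a and ar, a Sertoli cell transcription factor and the androgen receptor, differed by -0.33 and -0.12. In morphants ar fell at 14 dpf by 0.86 (limma adjusted p = 0.0336). It was the 1 call of the list at that age, where 0.438% of all rows fell. The call was lost under 10 of 29 alternatives, among them averaging near-duplicate arrays (adjusted p = 0.0744). At 22 dpf 3 of the 25 fell (2.8% of all rows), and 1 with near-duplicate arrays averaged (1.77% of all rows).

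**Figure D3:**
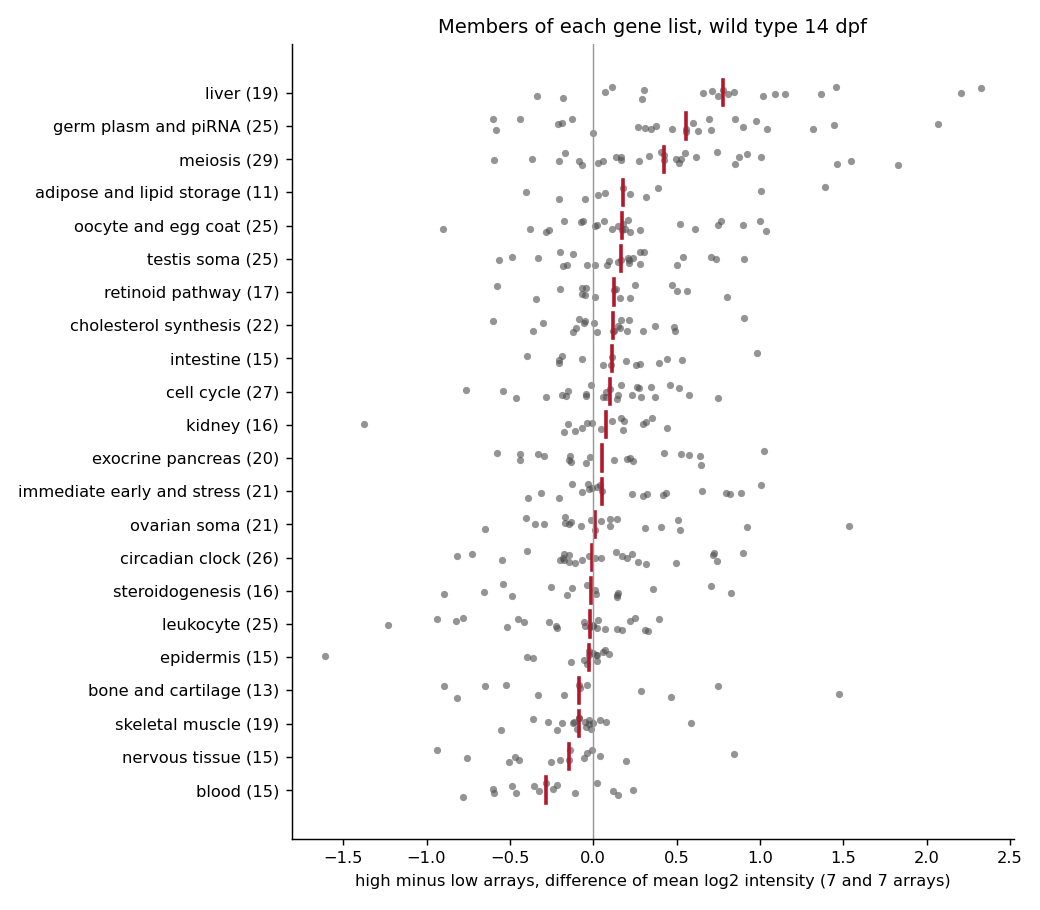
Difference of mean log2 intensity, 7 high minus 7 low wild-type arrays at 14 dpf (horizontal axis), for each measured member (points) of 22 gene lists, with the median of each list as a red line and the number of measured members in brackets. The liver, germ plasm and meiosis lists have the highest medians, 0.78, 0.56 and 0.42, and blood has the lowest, -0.28; the liver level rests on array 10.

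Some lists for other tissues of the trunk also differed between the 2 sets, and their part in the differences above was not tested. Liver had a higher median than any germ cell list, with 17 of 19 members higher and a median of 0.78, but a single array carried its level. Array 10 had a liver level of 11.14, while the other 13 arrays had 5.48 to 6.56. Without array 10 the list difference went from 0.81 to 0.07, whereas that of the germ plasm list was 0.53 and that of the meiosis list 0.47. fabp10a, the liver fatty acid binding protein, read 14.97 on array 10, against a median of 9.30 on high and 8.81 on low arrays. ttr, the transthyretin carrier of thyroid hormone, read 13.88 there, against medians of 6.07 and 4.88, and its difference of 2.33 was 1.21 without that array.

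Exocrine pancreas had a level of 7.01 to 10.47 on high arrays and at most 10.66 on low arrays, and its difference was -1.22 among title numbers up to 12 and 1.36 from 13 onward. Blood genes were lower in 11 of 15 cases, with a median of -0.28, skeletal muscle genes in 16 of 19, with a median of -0.09, and nervous tissue genes in 12 of 15, with a median of -0.15. The levels of these lists differed by -0.26, -0.08 and -0.19. SDs on high and low arrays were 0.34 and 0.35 for blood, 0.09 and 0.06 for muscle and 0.35 and 0.23 for nervous tissue. Leukocyte genes were even in number, 12 higher and 13 lower. Their list level was 7.78 ± 0.26 (SD, n = 7) on high and 7.94 ± 0.33 (SD, n = 7) on low arrays, a difference of -0.16. The leukocyte gene with the lowest difference was mhc2dab, an antigen-presenting MHC class II chain, at 7.83 to 11.64 (median 8.45) on high and 9.44 to 11.89 (median 10.39) on low arrays. lyz, the lysozyme of phagocytes, was 11.14 to 14.00 (median 13.15) on high and 11.10 to 14.57 (median 13.93) on low arrays. epcam, an epithelial adhesion molecule, differed by -1.61 with 8.96 to 13.57 (median 9.43) on high and 9.43 to 14.17 (median 13.58) on low arrays. Cell cycle genes had a median of 0.10, with 17 of 27 higher. The medians of the other 10 lists (adipose, retinoid, cholesterol synthesis, intestine, kidney, stress, circadian clock, steroidogenesis, epidermis and bone) lay between -0.09 for bone and 0.18 for adipose tissue. The adipose level also followed array 10, with a difference of 0.27 that was 0.14 without it. No member of any of these lists separated the 2 sets completely. Over all 31470 rows 7 (0.0222%) were separated upward and 1 (0.00318%) downward, so lists this small would hardly hold any. Their lack of separated members therefore says nothing about these tissues.

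Rows apart by at least 1 whether or not the 2 sets overlapped numbered 656 higher (2.08% of 31470) and 384 lower (1.22%). Counted afresh, they numbered 688 and 516 without array 10, 734 and 441 without array 8 and 619 and 457 without array 20. With a score lacking vasa, where array 7 replaced array 10, they numbered 573 and 533. The excess of higher rows thus varied with the arrays in each set. Of the 656, 503 remained apart by 1 without array 10, 544 without array 8 and 496 without array 20. Of the 384, 339, 316 and 280 did.

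Both groups of rows were then read in the 24 arrays at 22 dpf, which played no part in the order. Of the 656 rows higher in high arrays, 113 fell in morphants (17.2%) and 4 rose (0.61%), where 2.8% of all rows fell and 0.794% rose. Of the 384 rows lower in high arrays, 3 fell (0.781%) and 7 rose (1.82%). At 14 dpf 24 of the 656 fell (3.66%) and 1 rose, beside 0.438% and 0.181% of all rows, and 0 of the 384 passed in limma, of which 14 were lower and 16 higher at an unadjusted p under 0.05. That comparison shares its 14 wild-type arrays with the 2 sets. All 24 rows that fell at 14 dpf also fell at 22 dpf, and over all rows 72 of 138 did. With near-duplicate arrays averaged, 93 of the 656 fell at 22 dpf and 19 at 14 dpf. None of the 656 then rose at 22 dpf in limma (0, beside 37 higher at an unadjusted p under 0.05 with all arrays kept), and of the 384 1 fell and 4 rose. Of all rows 1.77% then fell and 0.187% rose at 22 dpf, and 0.226% fell and 0.0349% rose at 14 dpf.

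**Figure D4:**
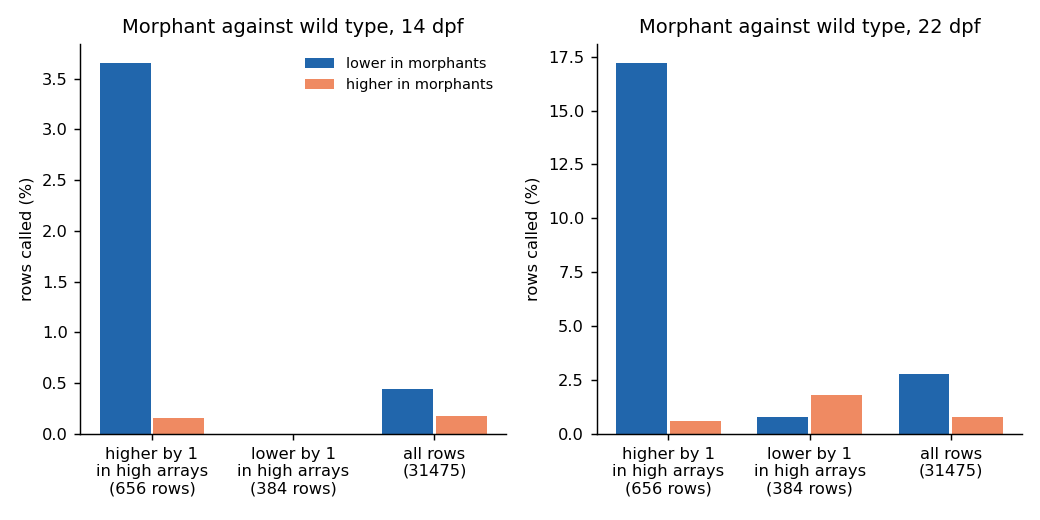
Share of rows called lower or higher in dnd morphants (vertical axis, percent, limma adjusted p under 0.05) at 14 dpf (left) and 22 dpf (right), for the 656 rows higher and the 384 rows lower by at least 1 in the high arrays and for all 31475 rows; the 2 panels have different scales. Of the 656 rows 17.2% fell at 22 dpf and 3.66% at 14 dpf, against 2.8% and 0.438% of all rows.

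Of the 113 rows that fell at 22 dpf 59 have a gene name. Besides the list members above, some were picked after their values had been seen. adad1, an RNA-binding protein known from mouse testis, was 7.62 to 9.22 (median 8.73) on high, 5.21 to 8.36 (median 6.95) on low and 4.11 to 7.19 (median 4.76) on morphant arrays at 14 dpf. The morphant median lay below every wild-type array, and adad1 fell by 2.67 (SE 0.46, limma adjusted p = 0.00667) at 14 dpf and by 3.98 (SE 0.53, adjusted p = 6.46e-05) at 22 dpf. adad1 was picked from rows higher in high arrays and lower in morphants, so its order and these falls follow largely from the choice.

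eif4e1b, a cap-binding protein of oocytes, was 6.93 to 9.71 (median 8.52) on high, 5.54 to 9.11 (median 7.01) on low and 4.65 to 6.28 (median 5.51) on morphant arrays. tuba7l, a tubulin, was 10.16 to 12.16 (median 11.80) on high, 8.49 to 11.35 (median 10.47) on low and 6.58 to 10.47 (median 8.34) on morphant arrays. insb, the second insulin gene of zebrafish, was 6.54 to 9.06 (median 7.18) on high, 5.16 to 7.71 (median 6.47) on low and 4.55 to 6.03 (median 4.99) on morphant arrays. In these 3 genes the medians stepped down from high to low to morphant, with neighbouring groups overlapping. They were picked from rows higher in high arrays and lower in morphants, so this order follows largely from the choice. In morphants at 22 dpf eif4e1b fell by 4.12, tuba7l fell by 3.21 and insb fell by 3.02. At 14 dpf they differed by -2.31, -2.55 and -1.73, with limma adjusted p values of 0.0213, 0.0144 and 0.0186. The call of eif4e1b at 14 dpf was lost without morphant array 1 (adjusted p = 0.0541) or 5 (adjusted p = 0.0511). rbm46, which in mouse germ cells is needed for meiotic entry, differed by 1.49 between the 2 sets and fell at 22 dpf by 2.39 (SE 0.48, adjusted p = 0.00351).

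tshb, the beta chain of thyrotropin, had 4.18 to 9.46 (median 7.29) on high and at most 5.92 (median 4.64) on low arrays, a difference of 2.47. It fell in morphants at 22 dpf by 2.83 (SE 0.56, limma adjusted p = 0.00302), while at 14 dpf the difference was 0.01 (adjusted p = 0.996). entpd5a and omd were also picked after their values had been seen. entpd5a, an enzyme that zebrafish need to mineralize bone, had the lowest difference of the table, -2.26, at 4.38 to 11.24 (median 10.64) on high and 8.73 to 12.79 (median 11.83) on low arrays. It rose in morphants at 22 dpf by 1.24 (SE 0.26, limma adjusted p = 0.00463), a call lost in a model of all 4 group means (adjusted p = 0.33), and had a difference of -0.80 (adjusted p = 0.705) at 14 dpf. A separate row labelled entpd5, in the bone list, differed by -0.82 between the 2 sets. That row rose at 22 dpf by 0.92 (SE 0.15, limma adjusted p = 0.000343), a call lost under 0 of 30 alternatives. omd, an extracellular matrix protein of bone, was the 1 row of the 656 that rose in morphants at 14 dpf, by 1.66 (SE 0.39, adjusted p = 0.0449), a call lost with near-duplicate arrays averaged (adjusted p = 0.081) and without most single arrays.

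Title numbers are the only order that the labels give. They were cut into a lower group (up to 12) and an upper group (13 onward), which the labels do not name as batches. The 2 sets held both: 4 high and 3 low arrays came from the lower group, 3 high and 4 low from the upper. The germ score was 9.52 ± 0.65 (SD, n = 7) in the lower and 9.07 ± 0.88 (SD, n = 7) in the upper group, a difference that a two-sided exact permutation test did not call (p = 0.326). With 7 arrays per group and SDs larger than the difference of -0.45, this does not show the score to be alike in both groups. Between these groups 459 rows passed in limma (1.46%), 300 higher (0.953%) and 159 lower (0.505%) in the upper group. Of the 656 rows 1 was among them, and of the 384 also 1. The 2 sets held nearly the same mix of number groups, so a small overlap follows in part from the split. Whether a batch had a part in the differences was not tested.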

How the data were processed

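Total RNA of zebrafish trunks was amplified and hybridized with Cy3 on 1-colour NimbleGen arrays, per the labels' protocols. The authors deposited 1 table of log2 values, 31475 rows by 47 arrays, made with RMA per the submitters' processing notes; its version is not given here. Arrays carry no read depth, so their number limits the precision.

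Of the rows, 22614 matched 1 current gene symbol, 8815 none and 46 several. The 2 sets of 7 arrays were described by means, SD, overlap and a minimum difference of 1. Labelled groups were fitted one age at a time with limma 3.58.1 (R 4.3.3; lmFit, eBayes, no filter on low values), Benjamini-Hochberg adjusted over all rows and called under 0.05. The germ score of the number groups was compared with scipy 1.17.1. The fits were tested on simulated data with independent arrays, in which 100 rows drawn at random were lowered by 1 and 100 by 2. Of these 37% and 77% were called at 14 dpf, and 59% and 94% at 22 dpf. A row not called, above all at 14 dpf, is thus not shown to be unchanged.

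Members, the 22 gene lists and the tests were chosen with earlier results of these data known. Genes were named by rule: the score rows, up to 15 separated rows each way with a current symbol, up to 4 members per list with the largest difference, and 18 gonad genes; others are marked as picked afterwards. The count of rows apart by 1 whether or not the 2 sets overlap, and its reading in morphants, were also added after the data had been seen. Within groups, deviations from the group mean (rows averaging 8 or more) correlated above 0.6 in 6 pairs of arrays (0.644 to 0.932): 1 morphant pair at 14 dpf, 2 morphant and 3 wild-type pairs at 22 dpf, and none of the 14 wild-type arrays at 14 dpf (highest 0.373). The limit of 0.6 replaced a planned 0.65 after the data had been seen, which added the pair at 14 dpf. Values with the 6 pairs averaged are given beside the main counts and named calls they change.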

Additional observations from a re-analysis of the deposited data

Results flagged for a closer look

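An array was singled out where its gap to the nearest array of its group passed Dixon's limit, and 13 of 84 groups tested had such an array. Chance passes the limit in about 1 in 20 groups only where groups are independent and not chosen by their values. The high and low arrays were cut by the germ score, so gaps in the score and its rows partly follow from the cut itself. The groups also share arrays, and the score is the mean of its rows, so 1 array can be counted several times. The 13 of 84 are thus a description and cannot be set against 1 in 20.

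In the low arrays array 20 stood apart in the germ score at 7.35, in vasa at 6.60 and in tdrd9 at 7.70. In the high arrays array 8 stood apart in the germ score at 10.79. Among the 9 morphant arrays at 14 dpf array 3 stood apart upward in the germ score at 8.97, vasa at 10.92, smc1b at 9.64, piwil1 at 7.98 and dazl at 6.18.

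The remaining arrays were singled out in list levels. Array 10 of the high arrays had a liver level of 11.14, array 23 of the high arrays a steroidogenesis level of 7.31, and array 12 of the low arrays an intestine level of 7.03. Morphant array 16 had an oocyte and egg coat level of 6.77.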

How the results depend on the processing

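No paired analysis was possible because the groups compared share no title number within an age. The 7 high arrays stayed the same with arrays centred, with a median or standardised score and with the score lacking any row other than vasa; without vasa array 7 replaced array 10, the separated lower rows became 5, the share of higher rows that fell at 22 dpf 22.2%, and the liver list difference turned to -0.66. Centring gave 1 separated lower row. With the 5 highest and 5 lowest arrays, 73 rows were separated upward and 40 downward, and 1190 and 892 were apart by 1. A minimum of 0.5 gave 1 separated lower row, 3160 higher and 2730 lower rows, of whose higher ones 10.1% fell at 22 dpf; a minimum of 2 gave 1 separated higher row and 18 and 4 rows, of which 33.3% and 0% fell. The filter at a mean of 7 kept 17794 rows in the 22 dpf fit, of which 688 fell. Among rows with a mean of at least 7 the values were 2 separated, 296 and 192, and 22.0%, a share not to be set against 2.8% of all 31475 rows. Within title numbers up to 12, with 4 and 3 arrays, they were 214 and 191 separated, 1055 and 897 apart, and 10.5% and 2.56% fallen; from 13 onward 431 and 347, 1957 and 1599, and 10.5% for the higher rows. Fewer arrays per set separate more rows by construction. The cell cycle difference was -0.17 within title numbers up to 12, and -0.051 (without array 20) to 0.155 with each array left out.

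Leaving out each array in turn gave 5 to 12 rows separated upward and 0 to 6 downward, 619 to 792 higher and 404 to 542 lower rows, and shares fallen at 22 dpf of 14.4% (without array 18) to 22.7% (without array 10) and 0.421% to 1.69%. The morphant counts were 916 to 1432 of 1132 at 22 dpf, and 79 (without morphant array 1) to 327 (without wild-type array 12) of 195 at 14 dpf. The count between number groups of wild-type arrays was 136 (without array 10) to 552 (without array 22) of 459. The 14 dpf count moved by over 1.5 times without any of wild-type arrays 7, 12, 18, 19, 20 and 21 or morphant arrays 1, 5, 13, 14 and 16, and the number group count without any of arrays 6, 7, 8, 9, 10, 12, 18, 19, 20 and 21. Averaging near-duplicate pairs gave 617 calls at 22 dpf. At 14 dpf the planned limit of 0.65 averaged no pair and left 195. The limit of 0.6, chosen after seeing the data, gave 82 at that age. A model of all 4 group means gave 780 at 14 dpf. The filter at 7 gave 331 of 16961 rows at 14 dpf and 945 of 17013 rows between number groups. Centring moved the share of higher calls at 14 dpf from 29.2% to 46.6% and between number groups from 65.4% to 54.5%. Of the 55 named rows called at 22 dpf 13 lost the call under at least 1 alternative, and of 21 at 14 dpf 6 did; 0 reversed. The causes were not tested.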
